A study of Mus musculus with 16 samples.

Results

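Genes of the major histocompatibility complex (MHC) and of antigen presentation were followed in 4 cell types of the unchallenged mouse liver. The members were all genes of the deposited tables whose symbol starts with H2-, together with B2m, Cd74, Ciita, Tap1 and Tap2, which gave 49 of the 47729 gene rows. By role they comprised 2 classical class I genes, 29 other class I genes, 3 class I partners, 5 classical class II genes, 7 class II accessory genes and 3 other genes of the region that share the prefix. Of the 49 members, 45 had a read in at least 1 library, 27 had one in every library, and 4 (H2-M1, H2-M9, H2-M11 and H2-Pa) had none. All but 3 members lie on chromosome 17 of GRCm38, where the classical class I gene H2-K1 (ENSMUSG00000061232) spans chr17:33996017-34000347 and H2-D1 (ENSMUSG00000073411) spans chr17:35262730-35267499, while B2m is on chromosome 2, Ciita on chromosome 16 and Cd74 on chromosome 18.

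Endothelial cells (ECs), hepatic stellate cells (HSCs), Kupffer cells (KCs) and hepatocytes (HEPs) were each sequenced in 2 libraries labelled WT and 2 labelled KO, so that there were 16 libraries in all and n = 2 per group. Mice of the KO label carried Zeb2 alleles floxed at exon 7, a Cdh5-CreERT2 transgene, which the endothelial Cdh5 promoter drives, and an eGFP reporter. Mice of the WT label were littermates without Cre that were also given tamoxifen, at 2 mg per day on 5 consecutive days. Per the study's methods the animals were 8-week-old males and RNA was taken 2 weeks after tamoxifen. The inbred background was not given in the sources used here, and neither was the liver that each library came from. HEPs were enriched by density centrifugation and the other cells were sorted, HSCs by their vitamin A fluorescence, KCs by F4/80 and ECs by Meca32. Libraries held 12872706 to 15690506 reads on genes, levels are given as CPM (counts per 1000000 of these reads), and 3 reads, taken as the smallest level this depth can show, equalled 0.191 to 0.233 CPM. In bulk libraries such as these, fewer cells of a type and less RNA per cell cannot be told apart.

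The label was checked first. Zeb2 stood at 106.5 and 105.7 CPM in the WT EC libraries and at 198.9 and 130.1 CPM in the KO EC libraries, so that it was not lower under the KO label, and groups are therefore called by their labels. The counts cover the whole gene, of which the floxed exon is 1 part. For this mouse line the study itself reports efficient endothelial deletion of Zeb2, both at the mRNA level and by the share of recombined ECs. The cell type labels matched their markers, since the summed level of 10 markers for each of the 4 cell types was higher in all 4 libraries of that type than in any other. Markers of other cell types were present in every library: the hepatocyte list reached 1.86% to 23.3% of its mean hepatocyte level in ECs, 0.584% to 7.62% in HSCs and 5.94% to 11.1% in KCs. These shares differed between labels in ECs and HSCs and are given beside the results they move with.

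Class I molecules consist of a heavy chain and beta-2-microglobulin and show peptides from the cell's interior to CD8 T cells and natural killer cells. The peptides are cut by the proteasome and pumped into the endoplasmic reticulum by the TAP1-TAP2 transporter. Class II molecules pair an alpha and a beta chain, are held by the invariant chain CD74 until the DM proteins exchange it for peptide, and are shown to CD4 T cells. Class I is made by nearly all nucleated cells, whereas class II depends on the transactivator CIITA and is best known in dendritic cells, B cells and macrophages. In the liver, KCs and the sinusoidal endothelium are both regarded as antigen-presenting cells.

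The 2 groups of genes differ in the sequence upstream of their start sites. Promoter windows of 300 bases, 250 before the start site and 50 after it, were taken from RefSeq for GRCm38.p6, and 33 of the 49 members had one. The first set compares the class I genes over the stretch where enhancer A, the binding site of NF-kappa B, lies next to an interferon-response element. It is shown because H2-Q10, which was led by HEPs where the other genes of the set were not, lacks the exact letters GGGATTCCC. The exact letters are absent from H2-Q4 too, which was highest on average in HSCs and lowest in HEPs. At this place H2-Q4 reads ggggatttccc and H2-Q10 reads gaggactcccc, so that these genes depart from the motif in different ways. Whether the letters bear on the levels was not tested. Capitals mark GGGATTCCC and TTTCACTTC where they occur.
H2-K1: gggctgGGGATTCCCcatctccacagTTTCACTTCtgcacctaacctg
H2-D1: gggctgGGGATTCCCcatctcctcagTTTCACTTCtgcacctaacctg
H2-Q4: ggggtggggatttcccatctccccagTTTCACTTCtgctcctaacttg
H2-Q6: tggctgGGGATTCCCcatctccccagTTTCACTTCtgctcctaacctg
H2-Q7: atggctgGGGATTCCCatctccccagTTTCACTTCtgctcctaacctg
H2-Q10: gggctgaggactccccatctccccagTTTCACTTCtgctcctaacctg
These stretches lie at chr17:34000416-34000463 on the minus strand for H2-K1 and, on the plus strand, at chr17:35262918-35262965 for H2-D1, chr17:35379438-35379485 for H2-Q4, chr17:35424672-35424719 for H2-Q6, chr17:35439016-35439063 for H2-Q7 and chr17:35469908-35469955 for H2-Q10. GGGATTCCC was found in the windows of 4 members, H2-K1, H2-D1, H2-Q6 and H2-Q7, and in 0.353% of all 32851 windows. Counted from the first base of that motif in H2-D1, H2-Q10 carries the substitutions G1A and T5C. TTTCACTTC, which was added after the sequences had been read, was found in 7 members, H2-Q10, H2-Q4 and H2-M3 among them, and in 0.505% of all windows. Each motif was searched on both strands, and a match or its absence is a description of these letters alone.

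Closer to the start site several class I genes carry a Y box, CCAATCAG, which is CTGATTGG on the other strand. It is printed in capitals for H2-D1 and H2-Q6 and is interrupted in H2-Q10.
H2-D1: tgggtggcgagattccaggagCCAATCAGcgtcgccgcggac
H2-Q6: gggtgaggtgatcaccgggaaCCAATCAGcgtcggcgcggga
H2-Q10: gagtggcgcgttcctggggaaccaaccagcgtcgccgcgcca
The H2-D1 stretch is chr17:35263020-35263061, that of H2-Q6 is chr17:35424774-35424815 and that of H2-Q10 is chr17:35470014-35470055, all on the plus strand. Counted from the first base of CCAATCAG in H2-D1, H2-Q10 has T5C. CTGATTGG was found in 18 members and in 4.1% of all windows. H2-Q10 was not alone among class I genes in lacking the full motif, since H2-Q4, H2-Q2, H2-M2, H2-M3 and H2-T22 had no match either. The windows of all these other genes did hold its core, ATTGG, on either strand, whereas that of H2-Q10 did not. The core is short and was found in 30 members and in 37.4% of all windows.

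The second set shows class II promoters, in which an X box and a Y box lie at a fixed distance and are bound by the RFX, CREB and NF-Y factors that recruit CIITA. Capitals mark CTGATTGG, its core ATTGG where the longer form is absent, TGACGTCA, CCCAGCAAC and CCTAGCAAC.
H2-Aa: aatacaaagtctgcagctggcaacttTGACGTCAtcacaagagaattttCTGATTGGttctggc
H2-Eb1: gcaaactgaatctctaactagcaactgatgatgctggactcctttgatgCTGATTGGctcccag
H2-DMb1: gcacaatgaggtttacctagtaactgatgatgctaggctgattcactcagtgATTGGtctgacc
H2-Oa: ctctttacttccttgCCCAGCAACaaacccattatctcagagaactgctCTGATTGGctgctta
H2-Ob: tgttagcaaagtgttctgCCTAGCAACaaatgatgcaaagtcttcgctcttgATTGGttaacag
The stretches lie at chr17:34287860-34287923 on the minus strand for H2-Aa and, on the plus strand, at chr17:34305756-34305819 for H2-Eb1, chr17:34153078-34153141 for H2-DMb1, chr17:34092284-34092347 for H2-Oa and chr17:34238796-34238859 for H2-Ob. Of the X box forms, CCCAGCAAC was found in H2-Oa and in 0.892% of all windows, and CCTAGCAAC in H2-Ob and in 0.804%. TGACGTCA was found in H2-Aa and in 1.79% of windows, and ATTGG, which lies inside CTGATTGG, in 30 members and 37.4% of windows, with both of these motifs added after the sequences had been read. The interferon form GAAANNGAA was found in B2m, H2-T22 and H2-T23 and in 8.56% of windows.

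Classical class I transcripts were abundant in all 4 cell types. H2-D1, a heavy chain, stood at 6738 and 7164 CPM in the WT EC libraries and at 8010 and 10560 CPM in the KO EC libraries. In HSCs it was at 13850, 14790, 13500 and 16390 CPM (2 WT libraries, then 2 KO libraries, the order used from here on), in KCs at 9871, 7956, 7950 and 8056 CPM, and in HEPs at 1874, 1490, 1928 and 1920 CPM. All 4 HSC libraries lay above every other library, and all 4 HEP libraries lay below. H2-K1, the second classical heavy chain, was at 2479, 1971, 1821 and 2427 CPM in ECs, at 4991, 3287, 2631 and 3666 CPM in HSCs, at 3048, 1495, 1783 and 2530 CPM in KCs and at 1467, 1210, 905.2 and 1340 CPM in HEPs. B2m, which encodes beta-2-microglobulin, was at 3577, 3152, 3429 and 4364 CPM in ECs, at 6139, 4985, 4927 and 5710 CPM in HSCs, at 4144, 2714, 2624 and 3251 CPM in KCs and at 2106, 2116, 1799 and 2471 CPM in HEPs. For both genes the HSC libraries were the highest on average, with overlap between HSCs and KCs for H2-K1 and none between HSCs and any other cell type for B2m.

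Per kilobase of annotated exon, B2m had the highest mean level among class I genes and their partners in each of the 4 cell types, with 4222 ± 604 CPM per kb in ECs (mean ± SD over 4 libraries, WT and KO labels together), 6326 ± 682 in HSCs, 3702 ± 811 in KCs and 2469 ± 320 in HEPs. H2-D1 followed, its mean ± SD overlapping that of B2m outside HEPs, with 3148 ± 664 CPM per kb in ECs, 5674 ± 501 in HSCs, 3280 ± 366 in KCs and 699 ± 81.3 in HEPs. H2-K1 had 740.1 ± 112 CPM per kb in ECs, 1240.0 ± 339 in HSCs, 753.6 ± 241 in KCs and 418.8 ± 82.0 in HEPs. Of the 50-base windows of their transcripts, 12.8% of those of H2-D1 and 9.63% of those of H2-K1 occur in another gene too, while B2m shares none, so that reads of the heavy chains could in part have been left out as not unique.

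**Figure D1:**
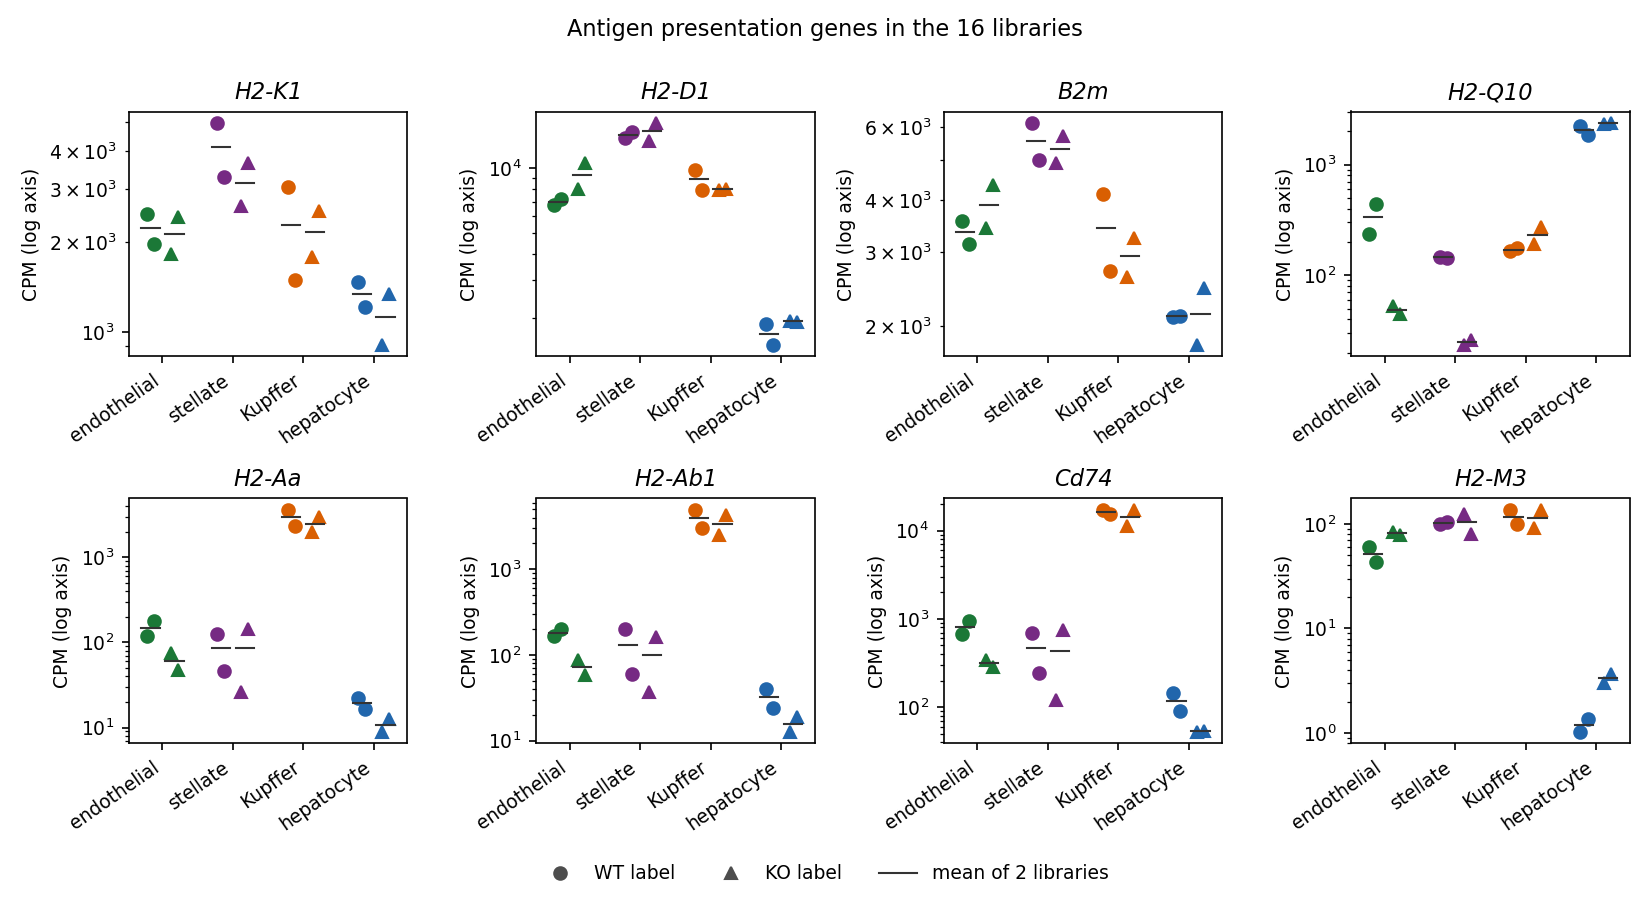
Level of 8 antigen presentation genes in each of the 16 libraries. The vertical axes give CPM on a log scale and the horizontal axes the cell type, circles are WT-labelled and triangles KO-labelled libraries, and short lines are the mean of 2 libraries. H2-Q10 stands at 1864 to 2388 CPM in HEPs and at 23.4 to 435.4 CPM elsewhere, whereas Cd74 stands at 11310 to 17350 CPM in KCs and at 52 to 936.4 CPM elsewhere.

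In the test between cell types (edgeR's quasi-likelihood test over 16 libraries, Benjamini-Hochberg adjusted p under 0.05 over 17214 genes, a cell type being the mean of its WT and KO groups), 14 of 32 members tested differed between ECs and HSCs, against 26% of all genes (7 members without KO EC library 6 or without WT EC library 38). H2-D1 was lower in ECs than in HSCs by a log2 fold change of -1.11 ± 0.21 (SE, adjusted p = 0.00223), H2-K1 by -0.98 ± 0.32 (adjusted p = 0.0391) and B2m by -0.83 ± 0.25 (adjusted p = 0.0273). Among the 18 class I genes tested, 8 were lower and 2 higher in ECs than in HSCs (12.8% and 13.3% of all genes), with a median of -0.78 against 0.02 over all genes. Those higher in ECs were H2-Q10 and H2-T24. Of the 10 hepatocyte markers 7 were also called higher in ECs than in HSCs, with a median of 1.17, and their part in the H2-Q10 difference was not tested. Between ECs and KCs 13 members passed, against 32% of all genes, and neither H2-D1, H2-K1 nor B2m was among them.

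Class I relative to HEPs depended on the scaling. TMM factors, which correct each library for its composition, were 0.497 to 0.588 in HEPs and 1.01 to 1.47 elsewhere. On this scale H2-D1 was higher in ECs (log2 fold change 0.79 ± 0.21, adjusted p = 0.00646), HSCs (1.90 ± 0.22, adjusted p = 1.17e-05) and KCs (1.19 ± 0.21, adjusted p = 0.000461) than in HEPs. H2-K1 was at -0.54 ± 0.31 and B2m at -0.60 ± 0.25 between ECs and HEPs, neither past the threshold (adjusted p = 0.155 and 0.0526), and with library totals in place of TMM factors both values turned to 0.83 and 0.77. Members past the threshold numbered 18 between ECs and HEPs (58.7% of all genes), 19 between HSCs and HEPs (58.4%) and 23 between KCs and HEPs (55.6%). The median log2 difference of all genes was 0.54, 0.60 and 0.24 in these comparisons, so that values near it do not set a gene apart from the rest.

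By CPM the transporter genes were lowest in HEPs. Tap1 was at 236.5, 146.0, 110.4 and 145.0 CPM in ECs, at 231.0, 127.5, 94.5 and 124.6 CPM in HSCs, at 148.6, 136.4, 95.5 and 200.5 CPM in KCs and at 31.2, 16.8, 20.4 and 28.8 CPM in HEPs. Tap2 was at 173.0 to 203.6 CPM in ECs, 228.5 to 261.8 CPM in HSCs, 121.5 to 173.8 CPM in KCs and 34.1 to 58.8 CPM in HEPs. Tap1 in HEPs was below every other library, with a log2 difference of 1.32 ± 0.33 from ECs to HEPs (adjusted p = 0.00432). The TMM-scaled difference of Tap2 in that comparison was 0.54, no larger than the median of all genes.

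The non-classical class I genes differed more widely. H2-M3, which presents N-formylated peptides of bacteria and mitochondria, was at 60.5, 42.7, 82.9 and 78.9 CPM in ECs, at 99.6, 104.2, 125.5 and 80.8 CPM in HSCs, at 134.5, 99.0, 90.5 and 136.8 CPM in KCs and at 1.02, 1.36, 3.03 and 3.64 CPM in HEPs. It was therefore near absent from HEPs, with a log2 difference of 3.64 ± 0.27 between ECs and HEPs (adjusted p = 3.49e-07) and of 4.80 ± 0.28 between KCs and HEPs (adjusted p = 1.12e-07). H2-T24 was highest in ECs, at 137.2, 94.0, 115.3 and 149.4 CPM, followed by KCs at 45.1 to 88.6 CPM, HSCs at 30.2 to 57.5 CPM and HEPs at 0.614 to 2.32 CPM. Its EC libraries lay above all others, and the difference from HSCs passed the threshold (log2 1.45 ± 0.31, adjusted p = 0.00477) while that from KCs did not (0.64 ± 0.31, adjusted p = 0.134).

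H2-T23, which encodes Qa-1 and shows leader peptides to the NKG2A receptor of natural killer cells, was at 232.7 to 446.6 CPM in ECs, HSCs and KCs together and at 116.9 to 223.7 CPM in HEPs. This order and that of H2-T22 below are by CPM. Both depend on the scaling, since TMM factors were 0.497 to 0.588 in HEPs and 1.01 to 1.47 elsewhere. H2-Q4, H2-Q6 and H2-Q7, the last 2 of the Qa-2 group, were each highest on average in HSCs, with 50.1 ± 11.7, 59.3 ± 17.4 and 22.5 ± 5.23 CPM per kb (n = 4), and lowest in HEPs, with 5.73 ± 0.96, 5.77 ± 2.61 and 3.40 ± 1.28 CPM per kb. Single HSC libraries overlapped with other cell types, the lowest having 36.6, 38.8 and 16.0 CPM per kb. The highest other libraries had 39.6 for H2-Q4 (ECs), 77.6 for H2-Q6 (KCs) and 16.2 for H2-Q7 (KCs). Of their 50-base windows 21.8%, 32% and 26.4% occur in another gene. H2-T22, a ligand of gamma delta T cell receptors, was at 42.5 to 86.9 CPM in HSCs, 37.1 to 65.8 CPM in ECs, 18.9 to 31.7 CPM in KCs and 16.0 to 34.3 CPM in HEPs. H2-T10, its close relative, varied more within cell types than between them, from 6.76 to 19.8 CPM in ECs, 4.77 to 25.2 CPM in HSCs, 2.64 to 14.5 CPM in KCs and 1.16 to 12.8 CPM in HEPs. Of the 50-base windows of H2-T22 and H2-T10, 34.5% and 32.9% occur in another gene. Members of lower level were also read in every library: H2-Q1 was at 11.5 to 72.0 CPM, H2-Q2 at 3.68 to 53.2 CPM, H2-K2 at 14.4 to 35.5 CPM and H2-Bl at 3.05 to 7.40 CPM over the 16 libraries. H2-M2 was highest in KCs, at 3.62, 4.11, 10.6 and 17 CPM, against at most 2.49 CPM elsewhere. H2-M5, H2-T3, H2-Q5 and H2-Eb2 never exceeded 1.73 CPM.

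H2-Q10, which encodes the secreted class I protein Qa-10 made by the liver, was the one class I gene led by HEPs to this extent. HEP libraries held 2231, 1864, 2318 and 2388 CPM. The other cell types held far less, with 164.9, 176.4, 190.8 and 272.4 CPM in KCs, 233.6, 435.4, 52.7 and 44.6 CPM in ECs, and 147.5, 142.7, 23.4 and 26.1 CPM in HSCs. Of the 50-base windows of H2-Q10, 19% occur in another gene. Relative to HEPs the log2 difference was -5.48 ± 0.25 in ECs (adjusted p = 2.90e-08), -6.32 ± 0.27 in HSCs (adjusted p = 2.08e-08) and -4.52 ± 0.24 in KCs (adjusted p = 7.59e-08). It was not the only class I gene called higher in HEPs. Of 18 tested, 3 were called lower and 6 higher in ECs than in HEPs (58.7% of all genes over both directions). In HSCs 3 were lower and 9 higher (58.4%), and in KCs 3 and 7 (55.6%), with H2-Q10 among the lower ones each time. In every library H2-Q10 was between 1.67% and 3.99% of the summed level of the 10 hepatocyte markers, albumin and transthyretin among them, although that sum ranged from 633.9 to 117800 CPM. HEPs themselves gave 1.82% to 2.16% and ECs 1.72% to 2.21%. A pair of HSC libraries stood above the rest, at 3.99% (WT library 32) and 3.69% (KO library 8).

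**Figure D2:**
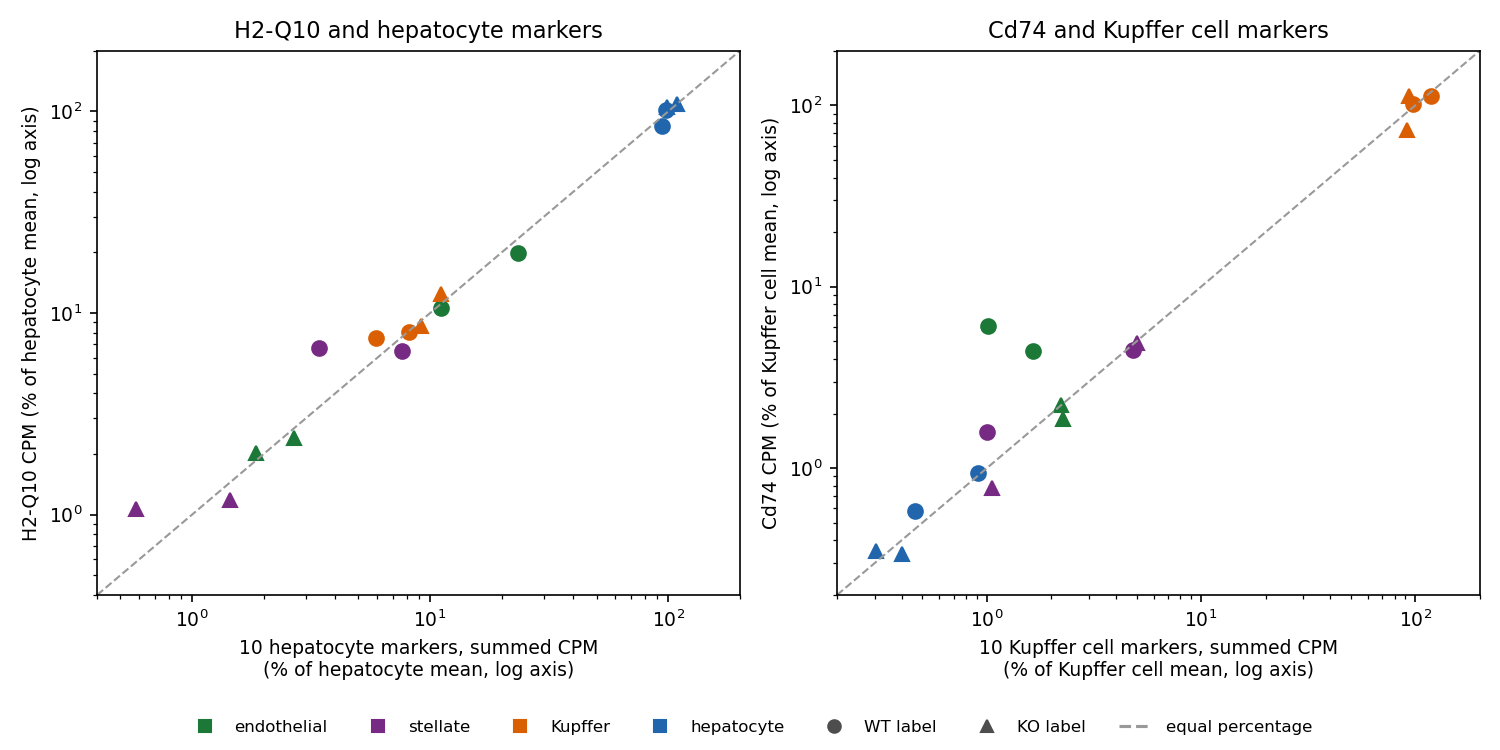
H2-Q10 against the summed hepatocyte markers (left) and Cd74 against the summed Kupffer cell markers (right), one point per library, each as a percentage of its mean in HEPs or KCs on log axes. Colours mark cell types, circles WT and triangles KO labels, and the dashed line equal percentages. H2-Q10 lies near the line apart from the HSC libraries at 3.41% and 0.584% on the horizontal axis, which lie above it, and Cd74 lies above it in the 2 WT EC libraries (4.40% and 6.08% against 1.64% and 1.01%).

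Class II transcripts were highest in KCs. Cd74, the invariant chain, was at 17240, 15670, 11310 and 17350 CPM in KCs, which made it the most abundant member per kilobase in these cells with 9167 ± 1684 CPM per kb (n = 4). In ECs it was at 676.9, 936.4, 342.5 and 286.1 CPM, in HSCs at 687.6, 243.6, 120.1 and 751.9 CPM and in HEPs at 144.8, 89.3, 52 and 54.0 CPM. H2-Aa, the A alpha chain, was at 3640, 2316, 1980 and 2958 CPM in KCs, at 117.8, 178.8, 75.0 and 47.3 CPM in ECs, at 127.2, 45.8, 26.3 and 145.0 CPM in HSCs and at 22.4, 16.6, 8.83 and 12.5 CPM in HEPs. Its partner H2-Ab1, the A beta chain, was at 4958, 3033, 2509 and 4290 CPM in KCs, at 166.5, 199.2, 88.3 and 58.0 CPM in ECs, at 199.5, 59.5, 37.5 and 161.7 CPM in HSCs and at 40.3, 23.9, 12.6 and 18.7 CPM in HEPs. For these 3 genes every KC library exceeded every other library at least 10-fold.

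All 11 class II members tested were lower in HSCs than in KCs past the threshold, and 9 of 11 were lower in ECs than in KCs, with medians of -5.11 and -5.26 against 0.09 and 0.13 over all genes. Of all genes 20.6% were called lower in HSCs and 14.5% lower in ECs, and over both directions 20 of 32 members passed between HSCs and KCs, against 42.9%. Cd74 had a log2 difference of -5.26 ± 0.58 between ECs and KCs (adjusted p = 2.85e-05) and H2-Aa one of -5.18 ± 0.58 (adjusted p = 3.14e-05). The exceptions in ECs were H2-Oa and H2-Ob, the DO chains that restrain DM and are known from B cells. H2-Ob was at 7.05, 24.8, 6.06 and 3.82 CPM in ECs and at 2.21, 15.3, 6.46 and 8.73 CPM in KCs, and its difference was -0.17 ± 1.05 (adjusted p = 0.951). H2-Oa was at 4.12, 11.5, 2.02 and 0.695 CPM in ECs and at 4.63, 3.46, 4.48 and 5.41 CPM in KCs, with -0.81 ± 0.65 (adjusted p = 0.376). Both DO chains were higher in the WT EC library 38 than in any other library. The summed level of 10 B cell markers was highest there too, at 258.5 CPM, against 118.6 CPM in the other WT EC library, 75.9 and 75.2 CPM in the KO EC libraries and 48 to 83.1 CPM in KCs, and their part in these levels was not tested.

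Ciita, the class II transactivator, was at 39.8, 83.5, 59.6 and 88.7 CPM in KCs, at 6.56, 18.3, 3.69 and 2.43 CPM in ECs, at 4.42, 3.14, 0.760 and 0.553 CPM in HSCs and at 1.08, 0.614, 0.258 and 0.404 CPM in HEPs. Ciita (log2 1.70 ± 0.37, adjusted p = 0.00522) and H2-Ob were the class II genes past the threshold between ECs and HSCs, whereas Cd74 (-0.12 ± 0.48, adjusted p = 0.909) and H2-Aa (-0.13 ± 0.48, adjusted p = 0.891) did not pass. Of the 10 B cell markers 8 were called higher in ECs as well, with a median of 2.82 and summed levels of 75.2 to 258.5 CPM in ECs against 6.57 to 21.1 CPM in HSCs, and their part in both calls was not tested. Within HSCs Ciita was lower in both KO than in both WT libraries, as was H2-Oa, whereas Cd74 and the A chains varied with the library and not with the label. Cd74 in WT library 32 and KO library 20 reached 4.47% and 4.89% of the KC mean, where the summed Kupffer cell markers reached 4.81% and 5.05% of theirs. In WT library 40 and KO library 8 Cd74 was at 1.58% and 0.781% and the Kupffer cell markers at 1.0% and 1.05%. HEPs had 0.338% to 0.941% of the KC level of Cd74 and 0.305% to 0.906% of that of the markers. In the KO EC libraries the shares were 2.23% and 1.86% for Cd74 against 2.23% and 2.28% for the markers, and the WT EC libraries stood apart with 4.40% and 6.08% against 1.64% and 1.01%.

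The DM genes, which load peptide, followed the same order. H2-DMa was at 767.0, 602.0, 511.6 and 628.8 CPM in KCs, at 27.6, 34.9, 11.3 and 15.1 CPM in ECs, at 6.78 to 31.7 CPM in HSCs and at 1.48 to 4.27 CPM in HEPs. H2-DMb1 reached 148.8 ± 54.1 CPM per kb and H2-DMb2 51.5 ± 10.3 CPM per kb in KCs (n = 4), against 5.01 ± 3.66 and 5.51 ± 4.53 in ECs. The beta chains share 22.7% and 24.8% of their 50-base windows with another gene, so that the split between them is uncertain.

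The E chains departed from this pattern. H2-Eb1, the E beta chain, was at 1540, 59.8, 45.0 and 1378 CPM in KCs, and H2-Ea-ps, the E alpha gene, which the annotation lists as a polymorphic pseudogene, at 1209, 228.4, 67.3 and 1255 CPM. The A chains differed by less than 2-fold across the same 4 libraries, with libraries 31 (WT) and 43 (KO) again the higher. As a percentage of the H2-Aa reads of the same library, H2-Eb1 was at 42.3% and 46.6% in KC libraries 31 (WT) and 43 (KO) and at 2.58% and 2.28% in KC libraries 39 (WT) and 27 (KO). In KCs each state was thus seen under both labels.

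Other cell types showed the same 2 states. ECs had 45.9% in WT library 34, and 3.22%, 5.85% and 5.44% in WT library 38 and KO libraries 6 and 46. HSCs had 33.9% in WT library 32, and 1.26%, 7.35% and 2.72% in WT library 40 and KO libraries 8 and 20. HEPs had 61.7%, 63.0% and 60.2% in WT libraries 29 and 33 and KO library 41, and 2.19%, which is 3 reads against 137, in KO library 25. H2-Ea-ps went the same way, with 33.2% to 58.1% of the H2-Aa reads in the 7 libraries where H2-Eb1 was above 30% and 3.40% to 12.3% in the other 9. Neither gene shares a 50-base window with another gene. By the numbers of the labels, libraries 29 to 34 all had the higher state and libraries 38 to 40 the lower one, in several cell types each. The KO libraries numbered 6 to 27 had the lower state, 41 (HEP) and 43 (KC) the higher and 46 (EC) the lower one. The higher state was therefore found more often under the WT label. In HSCs only WT library 32 had it, and in HEPs only KO library 25 lacked it. State and label thus overlap in part in these cells too. Whether neighbouring numbers mark the same liver is not given in the sources used here, and no groups were formed from this split.

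**Figure D3:**
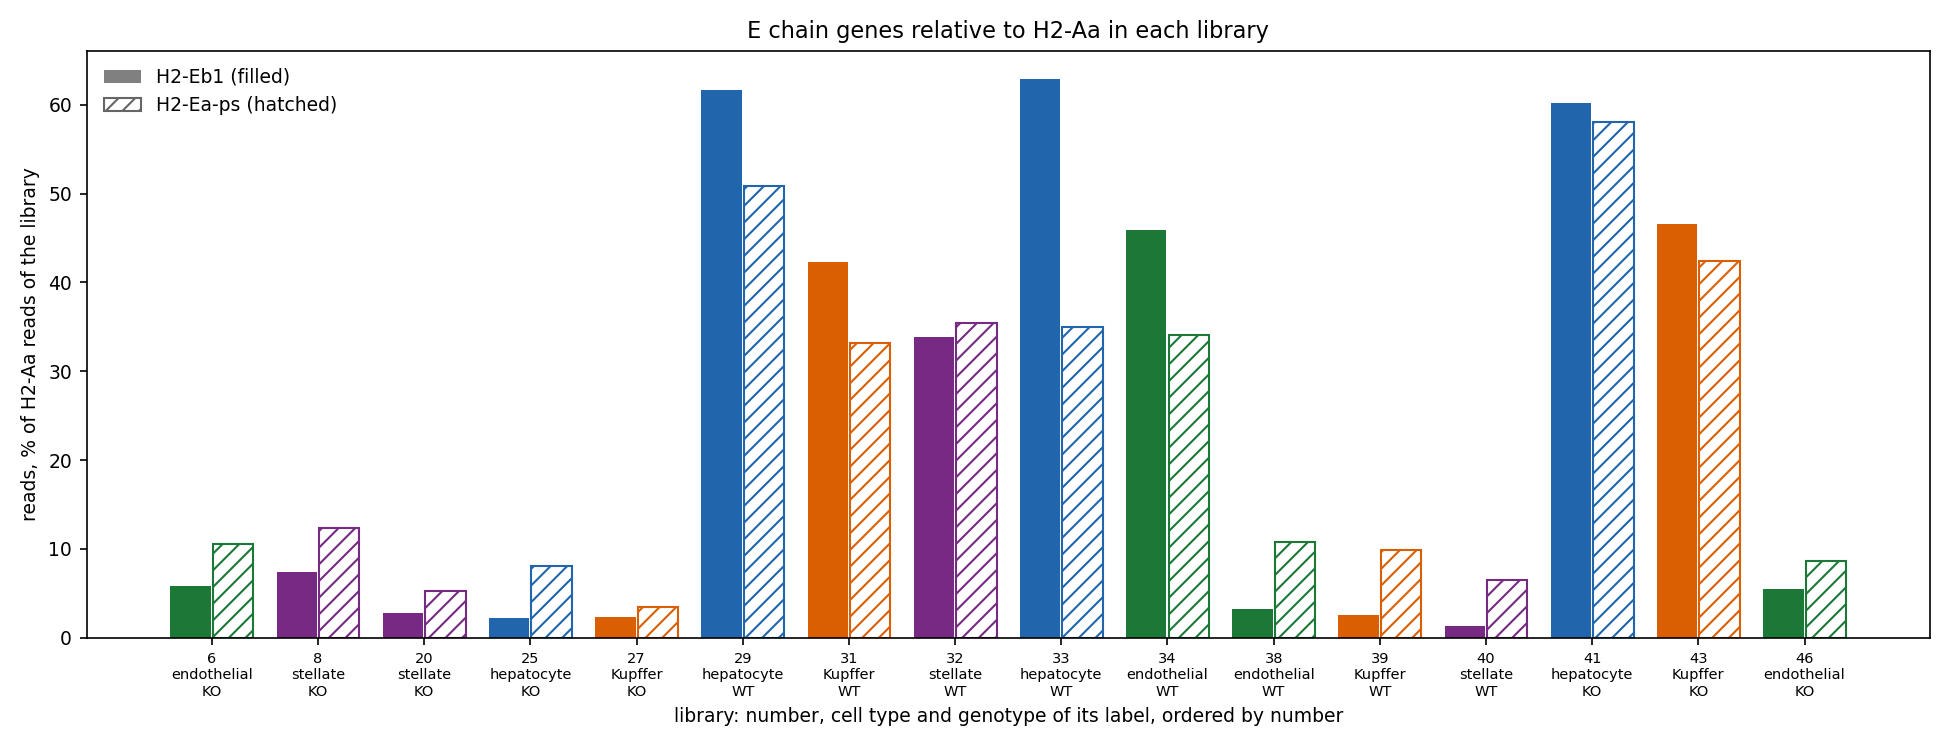
Reads of H2-Eb1 (filled bars) and H2-Ea-ps (hatched bars) as a percentage of the H2-Aa reads of the same library, for the 16 libraries ordered by the number of their label, with colours for the cell types. The 7 libraries numbered 29, 31, 32, 33, 34, 41 and 43 stand at 33.9% or more for H2-Eb1, and the other 9 stand at 7.35% or less.

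The study asked what loss of endothelial Zeb2 does to ECs and to neighbouring cells, and each cell type was therefore compared between labels. In ECs 1 of 32 members tested passed the threshold, against 2.08% of the 14631 genes (edgeR's quasi-likelihood test, 2 libraries against 2). It was H2-Q10, which fell by 2.78 on the log2 scale (SE 0.33, adjusted p = 0.0290), from 233.6 and 435.4 CPM to 52.7 and 44.6 CPM. All 10 hepatocyte markers fell as well, with a median of -2.94, and H2-Q10 as a share of their sum was 1.95% and 1.72% in the WT and 1.81% and 2.21% in the KO libraries. The call was lost when either KO library was left out (adjusted p = 0.0571 without KO library 6 and 0.0756 without KO library 46). When the 857 hepatocyte-enriched genes were left out, H2-Q10 being one, no gene of any kind passed in ECs.

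Class II genes were lower under the KO label in ECs without passing the threshold. All 11 members tested had both KO libraries below both WT libraries, an order found for 24.1% of all genes. All 11 had an unadjusted p under 0.05 with a lower KO level, against 10.1% of all genes, and their median log2 fold change was -2.02 against -0.01 over all genes. Adjusted p-values ranged from 0.0566 to 0.295. H2-Ab1 had -1.33 ± 0.25 (adjusted p = 0.0566), Cd74 -1.36 ± 0.26 (adjusted p = 0.0580), H2-Aa -1.29 ± 0.30 (adjusted p = 0.108) and Ciita -2.02 ± 0.61 (adjusted p = 0.203). The accessory genes had -1.23 for H2-DMa, -2.13 for H2-DMb1, -2.15 for H2-DMb2, -2.53 for H2-Oa and -1.69 for H2-Ob.

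Several class II values in ECs rested in part on 1 library. H2-Eb1 was at 54.1, 5.75, 4.39 and 2.57 CPM, a log2 fold change of -3.13 ± 0.99 (adjusted p = 0.220), and without WT library 34 the value was -0.70. That library was the only EC library in the higher state of the E chains, so that state and label cannot be told apart for H2-Eb1 and H2-Ea-ps in ECs. H2-Ea-ps was at 40.2, 19.3, 7.94 and 4.10 CPM, with -2.33 ± 0.50 (adjusted p = 0.0868). Without WT library 38 the value of H2-Ob went from -1.69 to -0.55, that of Ciita from -2.02 to -1.13 and that of H2-Oa from -2.53 to -1.64. The class II median was -1.22 without WT library 38 and -1.65 without WT library 34, and all 11 estimates stayed negative in both cases. Without WT library 34 there were 6 class II calls out of 11, without WT library 38 there were 2, and without either KO library there were none. DESeq2 called 9 of the 11, all lower, against 6.72% of all genes. In the edgeR fit of all 16 libraries none of the 11 was called, and 4 had an unadjusted p under 0.05. Adjusted p-values there ranged from 0.0615 to 0.824, with all 11 estimates negative and a median of -2.02.

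Lymphocyte and stellate cell markers moved with class II in ECs. All 10 B cell markers had a lower estimate under the KO label, 6 of them with an unadjusted p under 0.05 and none past the threshold, with a median of -1.48, and the 10 T and NK cell markers likewise with 7 and a median of -1.57. All 9 stellate markers tested were lower too, 8 with an unadjusted p under 0.05 and 1 past the threshold, with a median of -1.35, and their summed level was 1332 and 1595 CPM in the WT and 554.9 and 828.9 CPM in the KO libraries. The list of 10 dendritic cell markers was at 235.0 and 325.3 CPM in the WT and at 289.9 and 252.1 CPM in the KO libraries. Of 9 tested, 5 had a lower estimate, 1 of them with an unadjusted p under 0.05, and the median was -0.04. Kupffer cell markers went the other way, from 801.6 and 493.7 CPM to 1085 and 1110 CPM. Of these 10 markers 1 had a lower estimate, 5 were higher with an unadjusted p under 0.05, none passed the threshold, and the median was 0.84. None of the B cell markers was at 0 in any EC library, and Flt3 of the dendritic list was at 0 in all but WT library 34. The part of these cells in the class II values was not tested.

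Class I in ECs showed no common direction. Of 18 class I genes tested, 10 had a higher and 8 a lower estimate under the KO label, with a median of 0.05. H2-D1 had 0.43 ± 0.33 (adjusted p = 0.613), H2-K1 -0.06 ± 0.31 (adjusted p = 0.956), B2m 0.22 ± 0.31 (adjusted p = 0.802) and Tap1 -0.58 ± 0.32 (adjusted p = 0.461). H2-M3, at 60.5 and 42.7 CPM in the WT and 82.9 and 78.9 CPM in the KO libraries, had the largest positive value, 0.64 ± 0.25, with an unadjusted p of 0.0410 (adjusted p = 0.308).

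**Figure D4:**
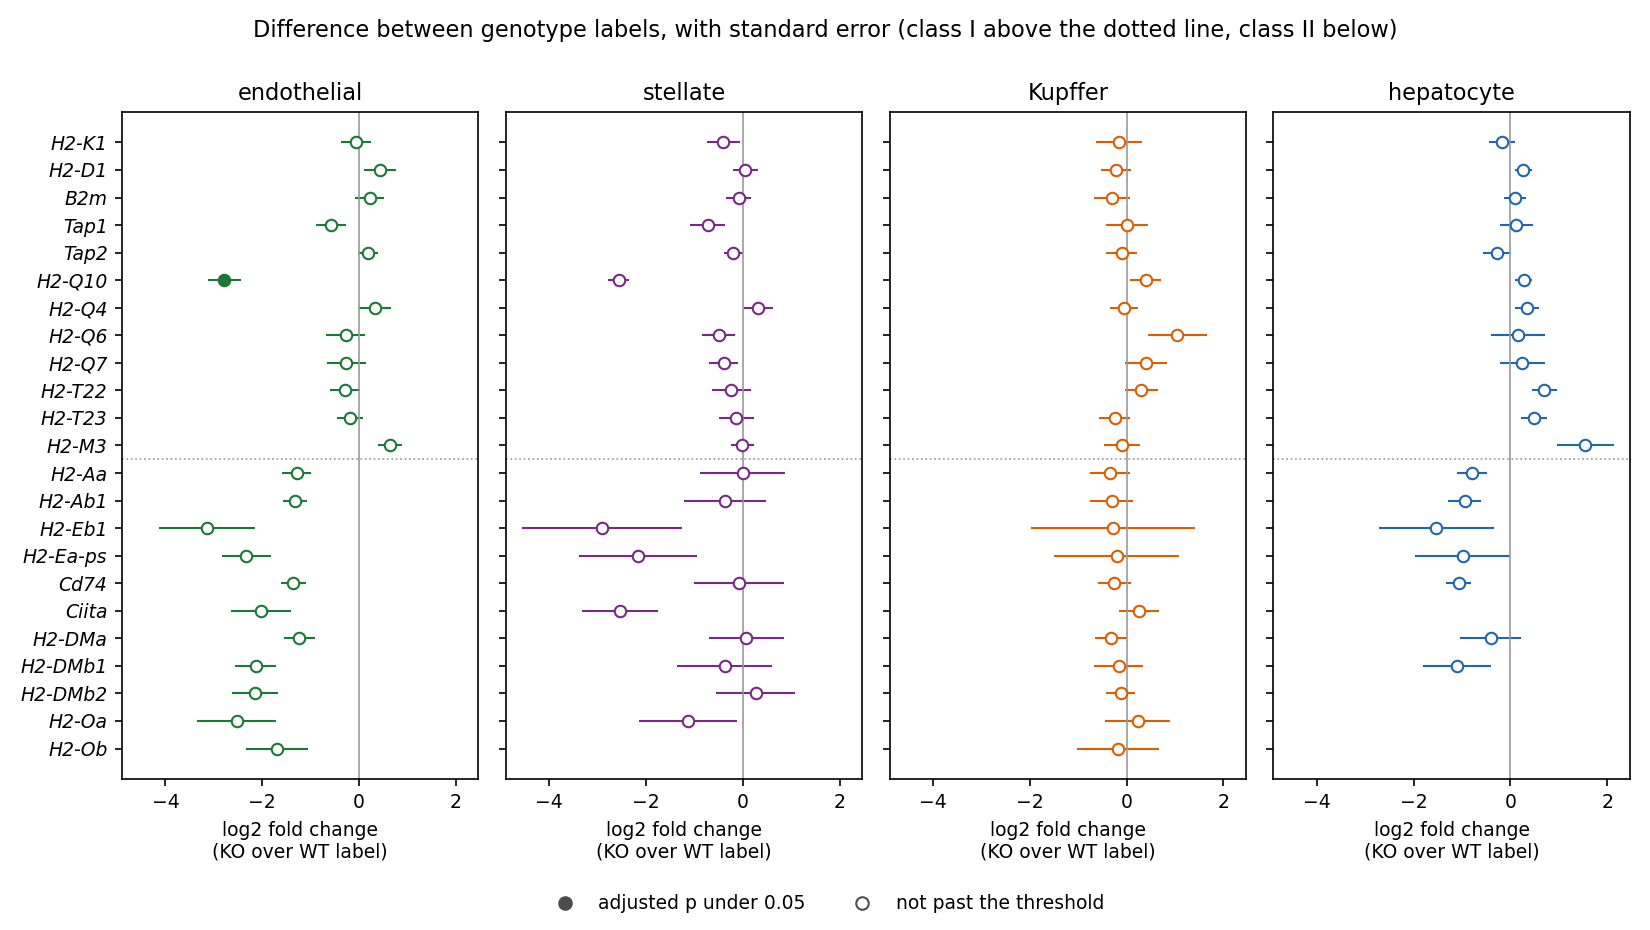
Log2 fold change between the KO and WT labels for class I genes and their partners (above the dotted line) and class II genes (below) in the 4 cell types, with standard errors as bars and filled symbols for an adjusted p under 0.05. H2-Q10 in ECs, at -2.78, is the one filled symbol, and the class II estimates in ECs lie between -3.13 and -1.23.

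In HSCs no gene passed the threshold (0% of 14390 genes called, 1259 with an unadjusted p under 0.05, and 408 called by DESeq2). H2-Q10 had the lowest p of the members, with 147.5, 142.7, 23.4 and 26.1 CPM and a log2 fold change of -2.57 ± 0.22 (adjusted p = 0.283). DESeq2 and the fit over all 16 libraries called it (adjusted p = 1.42e-15 and 0.00548). The hepatocyte markers were again lower in the same libraries, all 10 with an unadjusted p under 0.05 and a median of -2.52. Ciita had -2.54 ± 0.78 (adjusted p = 0.449) and was the one class II gene with an unadjusted p under 0.05, against 8.75% of all genes. The 10 class II genes tested had a median of -0.37 (-1.97 without KO library 20, -1.19 without WT library 40 and 0.87 without WT library 32), with 2 of 10 in the order that 19.3% of all genes showed. Cd74 had -0.08 ± 0.92, beside a range from 120.1 to 751.9 CPM over the 4 libraries. Without WT library 32 its value was 0.87 and without KO library 20 it was -2.05.

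In KCs no gene passed the threshold either (0% of 13867 genes, 706 with an unadjusted p under 0.05, 72 called by DESeq2). Of 31 members tested, 1 had an unadjusted p under 0.05, against 5.09% of all genes. This was H2-M2, at 3.62 and 4.11 CPM in the WT and 10.6 and 17 CPM in the KO libraries (log2 fold change 1.79 ± 0.52, adjusted p = 0.933). The class II genes, at their highest in these cells, had a median of -0.21 over 11 genes (from -0.66 without KO library 43 to 0.16 without WT library 31), with Cd74 at -0.25 ± 0.35 and H2-Aa at -0.34 ± 0.41, neither past the threshold (adjusted p = 0.969 and 0.961), and the libraries of both labels overlapped for every class II gene, whereas both KO libraries lay below both WT libraries for 16.1% of all genes and above them for 20.5%. H2-Q10 had 0.39 ± 0.32 (adjusted p = 0.938), beside hepatocyte markers with a median of 0.59.

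In HEPs no gene passed the threshold (0% of 11548 genes, 821 with an unadjusted p under 0.05, 32 called by DESeq2). Of 25 members tested, 6 had an unadjusted p under 0.05, against 7.11% of all genes, and each had an adjusted p of 0.700. H2-M3 had 1.54 ± 0.59, H2-K2 0.80 ± 0.28 and H2-T22 0.70 ± 0.26. Cd74 had -1.07 ± 0.26, H2-Ab1 -0.95 ± 0.34 and H2-Aa -0.79 ± 0.31, and the Kupffer cell markers had a median of -1.03 in the same libraries, with 6 of 10 at an unadjusted p under 0.05. H2-Q10, at its highest in these cells, had 0.27 ± 0.17 (adjusted p = 0.745).

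The difference of the label effect between cell types was tested as an interaction over all 16 libraries. H2-Q10 passed in 4 of the 6 pairs of cell types (in 1 to 4 of them when a single library was left out, with 1 left without KO EC library 46 or KO KC library 43 and all 4 kept only without WT EC library 34 or KO HSC library 20): ECs against KCs (2.07% of all genes called), ECs against HEPs (0.0697%), HSCs against KCs (0.593%) and HSCs against HEPs (0.0755%). ECs against HSCs (0.0349%) and KCs against HEPs (0.0116%) gave no call for it, and no other member passed in any pair. For class II the interaction between ECs and KCs had a negative estimate for 11 of 11 genes with a median of -1.97, of which 2 had an unadjusted p under 0.05 (9.39% of all genes, with a negative estimate). Between ECs and HSCs the estimate was negative for 9 of 11 genes with a median of -1.28, and 1 had an unadjusted p under 0.05 (2.78% of all genes). The lower class II values in ECs were thus not shown to differ from the label effect in the other cell types. Comparisons that hold the same EC or HSC libraries are not independent.

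The wider pathway was followed in 36 further genes, among them the proteasome subunits Psmb8 to Psmb10, the peptide-loading proteins, the class II regulators and the lysosomal proteases. Between the labels none of these passed the threshold in any cell type, with 35, 36, 36 and 31 tested in ECs, HSCs, KCs and HEPs and medians of 0.18, -0.20, -0.17 and 0.14. In ECs 6 had an unadjusted p under 0.05 (15% of all genes), 4 of them lower, and the lowest estimate was that of Nlrc5, the class I transactivator, at -1.44 (adjusted p = 0.0845), a gene singled out after its values had been seen. Between ECs and KCs 22 of 36 passed, 19 lower and 3 higher in ECs (14.5% and 17.5% of all genes). Those lower in ECs included the protease Ctss with a log2 difference of -5.69, the thiol reductase Ifi30 with -5.49, the costimulators Cd86 with -5.58, Cd80 with -7.50 and Cd40 with -4.26, and the protease Lgmn with -1.83. Between KCs and HEPs 27 of 36 passed, 21 of them higher in KCs (29.3% of all genes). The median over the 36 genes was 1.22 there and -0.80 between ECs and KCs, against 0.24 and 0.13 over all genes.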

How the data were processed

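RNA was measured in 16 libraries of ECs, HSCs, KCs and HEPs, 2 for each label of each cell type. The authors deposited 1 table of raw HTSeq counts per library, reads per Ensembl gene without normalization. The submitters' processing notes name Trimmomatic 0.32, HISAT2 2.1.0, HTSeq 0.9.1, edgeR and GRCm38, while the annotation release and the strand setting were not given in the sources used here. The series text and the sample protocols name different library kits. Non-unique alignments, 38.2% to 47.9% of lines in HEPs and 24.8% to 30.1% in the other cell types, were not counted, and the summary lines were left out of totals. Per library 12872706 to 15690506 reads were counted. Replicates differed beyond sampling noise (mean chi-square per gene 29.6 to 108.9).

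CPM, and CPM per kb of the exon union of GENCODE M21 (98.9% of identifiers matched), were computed from column totals. The KO and WT labels were set against each other per cell type (R 4.3.3, edgeR 4.0.16, filterByExpr, TMM, quasi-likelihood F-test, Benjamini-Hochberg adjusted p under 0.05 over all genes). Cell types and interactions were tested in 1 fit of 16 libraries with 8 group means, which treats libraries as independent although some may share a liver. Where nothing says that the 2 libraries of a group came from separate mice, p-values measure the spread between these libraries only. The smallest level was set at 3 counts, which covers counting error alone. Alternatives were DESeq2 1.42.0, RLE factors, no filter, a 16-library fit, a minimum of 10 counts in each library, WT groups only, each replicate left out, and leaving out 857 hepatocyte-enriched genes (at least 10 CPM in WT HEPs and at least 8 times the WT KC mean). Library totals without TMM factors were a later addition, chosen after seeing the data.

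Members, marker lists, pathway genes and the set of named genes (members of at least 1 CPM in a group or with an unadjusted p under 0.05 between labels) were chosen with earlier results of these data known. Scripts were tested on simulated counts. Plots used Python 3.11.15 and matplotlib 3.10.9.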

Additional observations from a re-analysis of the deposited data

Results flagged for a closer look

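The label effect on H2-Q10 differed between cell types in 4 of the 6 pairs tested as interactions over all 16 libraries (edgeR's quasi-likelihood test, adjusted over 17214 genes per pair). Between ECs and KCs the log2 difference of the label effects was -3.18 (adjusted p = 0.0125), and between ECs and HEPs it was -3.09 (adjusted p = 0.0431). For HSCs it was -2.98 against KCs (adjusted p = 0.0193) and -2.89 against HEPs (adjusted p = 0.0365). The pairs share the EC, HSC, KC or HEP libraries among them and are not 4 separate pieces of evidence. In both KO libraries of ECs and HSCs H2-Q10 was lower than in both WT libraries, and in KCs and HEPs it was higher in both.

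The hepatocyte marker list moved in the same libraries. As a percentage of its HEP mean it was 11.1% and 23.3% in the WT and 2.68% and 1.86% in the KO EC libraries, where H2-Q10 was 10.6% and 19.8%, then 2.40% and 2.03% of its own. In HSCs the list was at 3.41% and 7.62% in the WT and at 0.584% and 1.44% in the KO libraries, where H2-Q10 was at 6.71% and 6.49%, then 1.06% and 1.19%. In KCs the list was at 5.94% and 8.19% in the WT and at 9.12% and 11.1% in the KO libraries, and H2-Q10 at 7.50% and 8.02%, then 8.67% and 12.4%. The part of hepatocyte RNA in these differences was not tested.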

How the results depend on the processing

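With 2 libraries a group the counts of calls depended on the setting. No paired analysis was possible because the label numbers are not shared between groups. In ECs 305 genes and 1 member were called between labels. DESeq2 called 983 and 10, at least 10 counts in every library gave 489 and 6, no filter gave 1259 and 12, and leaving out the hepatocyte-enriched genes, H2-Q10 among them, gave 0 and 0. In HSCs, where 0 were called, DESeq2 gave 408 genes and 1 member, 1 fit of all 16 libraries 178 and 1, and no filter 663 and 3. In KCs DESeq2 called 72 genes and no filter 159. In HEPs DESeq2 called 32 genes, and no filter 227 genes and 2 members. With WT groups only, ECs against HSCs gave 1985 genes and 6 members, ECs against KCs 3086 and 8, HSCs against KCs 3784 and 10, and HSCs against HEPs 10 members. Interactions were called for 492 combinations of gene and pair and 4 of member and pair, against 275 and 2 with library totals and 4835 and 12 without the filter. The cause was not tested.

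Leaving out 1 library gave 3 (without KO library 46) to 688 genes (without WT library 34) and 0 (without either KO library) to 7 members in ECs, 0 to 55 genes (without KO library 25) and 0 to 1 member (without KO library 41) in HEPs, and 0 to 12 genes (without KO library 43) in KCs. It gave 7 to 15 members between ECs and HSCs, and 72 to 1010 gene combinations and 1 to 4 member combinations for the interactions. A group left with 1 library was assumed to vary like the others.

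On the log2 scale, library totals in place of TMM factors turned H2-K1 to 0.83 and B2m to 0.77 between ECs and HEPs, and to 0.85 and 0.58 between KCs and HEPs, where no filter gave 0.071 for H2-K1. They also turned Tap1, H2-Aa and Cd74 to 0.16, 0.15 and 0.16 between ECs and HSCs, and B2m, Tap1 and H2-Ob to 0.19, 0.11 and 0.12 between ECs and KCs. WT groups only turned H2-Aa and Cd74 to 0.51 and 0.52 between ECs and HSCs, H2-Q10, Tap1 and H2-Ob to 0.62, 0.090 and 0.60 between ECs and KCs, and Tap1 to 0.25 between HSCs and KCs.

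Leaving out 1 library also turned these log2 values, none of which had passed in the comparison named. Between labels in ECs H2-K1 ranged from -0.34 to 0.19 and B2m from -0.021 to 0.44, and in HEPs they ranged from -0.55 to 0.14 and from -0.22 to 0.36. In HSCs H2-D1 ranged from -0.18 to 0.24, B2m from -0.27 to 0.089, Cd74 from -2.05 to 0.87, H2-Aa from -1.81 to 0.94 and H2-Eb1 from -3.90 to 2.35. In KCs H2-K1 ranged from -0.65 to 0.59, H2-D1 from -0.46 to 0.065, B2m from -0.65 to 0.17, Cd74 from -0.66 to 0.049, H2-Aa from -0.73 to 0.16 and H2-Eb1 from -4.37 to 3.66. Between ECs and HSCs the ranges were -0.38 to 0.13 for Tap1, -0.59 to 0.73 for H2-Aa and -0.58 to 0.83 for Cd74. Between ECs and KCs they were -0.35 to 0.057 for B2m, -0.50 to 0.11 for Tap1 and -0.75 to 0.67 for H2-Ob. H2-Ob ranged from -0.77 to 5.47 between HSCs and HEPs, Tap1 from -0.38 to 0.20 between HSCs and KCs, and H2-K1 from -0.31 to 0.30 between KCs and HEPs. The H2-Q10 interaction ranged from -0.41 to 0.32 between ECs and HSCs and from -0.19 to 0.37 between KCs and HEPs. RLE size factors turned none of the directions examined.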
